A study of Mus musculus with 48 samples.

Results

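The signal recognition particle is a ribonucleoprotein built on 7SL RNA, and the genes described here are 3 annotated copies of that RNA (Rn7s1, Rn7s2 and Rn7s6) with 6 of its protein subunits (Srp9, Srp14, Srp19, Srp54a, Srp68 and Srp72). The members were taken by symbol and matched to the Ensembl identifiers of the deposited table, which gave 9 of 52636 genes. The RNA copies were chosen because of their levels in these same libraries. The values behind the choice were the Brd1+/- against WT difference under vehicle, both drug differences in Brd1+/- mice and both drug by genotype interactions, so for the RNA copies those 5 comparisons are given as values with no test. The proteins were chosen by name as the partners of the RNA.

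The particle binds a signal peptide as it leaves the ribosome, pauses translation and brings the ribosome to the endoplasmic reticulum, where secreted and membrane proteins are made. 7SL RNA is transcribed by RNA polymerase III, and the rodent B1 and primate Alu repeats descend from it. SRP9 and SRP14 bind the Alu domain of the RNA and slow elongation, SRP54 is the GTPase that reads the signal peptide, SRP19 helps SRP54 onto the RNA, and SRP68 and SRP72 form a heterodimer on the other domain. In neurons the particle serves the synthesis of receptors, channels and neuropeptide precursors.

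RNA was sequenced from the right amygdala of female mice of 8 to 11 weeks of the strain labelled C57BL/6NTac-Brd1, in 6 groups of 8 libraries. WT mice and mice heterozygous for a Brd1 deletion in all cells, in which loxP sites had flanked exons 3 to 5, received 1 of 3 injections. These were saline (vehicle), the tricyclic antidepressant imipramine at 10 mg/kg (IMN), and the serotonin reuptake inhibitor fluoxetine at 5 mg/kg (FLX). Every mouse, vehicle controls included, was injected on 2 days, went through the tail suspension, open field and forced swim tests, and was killed about 1 hour after the last of them. Values are TPM, a transcript's share of its library per unit of its length, so levels can be set side by side between genes.

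Brd1, the targeted gene, averaged 32.9 to 36.9 TPM in the 3 WT groups and 23.4 to 26.0 TPM in the 3 Brd1+/- groups. The amygdala markers were present, although Crh and Neurod6 were listed at 0 in 1 library each and Tac2 in 3. Choroid plexus and striatal projection neuron markers varied widely, with summed levels of up to 29586 and 7290 TPM in single libraries. Brd1+/- vehicle libraries had 25387 to 27252 genes above 0, against 23420 to 26549 in the other groups.

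The annotated transcripts (GENCODE M21, GRCm38) show which reads could separate the copies, since their levels depend on how reads of 50 bases that match several of them were divided. Rn7s1 (ENSMUSG00000099021, chr12:69159295-69159594, plus strand) begins 108 bases beyond the ribosomal protein gene Rps29. Rn7s2 (ENSMUSG00000099250, chr12:69361182-69361481, minus strand) lies 201587 bases from it, and its 300 bases differ from those of Rn7s1 at 0 positions. Rn7s6 (ENSMUSG00000092746, chr6:69516339-69516629, plus strand) is 291 bases long.

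Compared position by position without gaps, Rn7s6 matched Rn7s1 over its first 214 bases with 98.6% identity and 3 differences. From base 215 on, its last 77 bases (the tail) no longer matched in that comparison, and an alignment of them with gaps is not given. Of the 251 windows of 50 bases in Rn7s1, 251 (100%) also occurred in another annotated gene, and the same held for Rn7s2. Of the 242 windows of Rn7s6, 51.2% occurred in another gene and 118 (48.8%) in none. A read from Rn7s1 or Rn7s2 therefore had no unique place among the annotated transcripts, whereas a read from the tail of Rn7s6 had one. The unshared windows of Rn7s6 start at bases 1 to 41, where each holds at least 1 of the 3 differences, and at bases 166 to 242, where each reaches into the tail. With 1 mismatch allowed, Rn7s6 held 58.6% of the windows of Rn7s1, against 49.4% for exact matches.

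**Figure D1:**
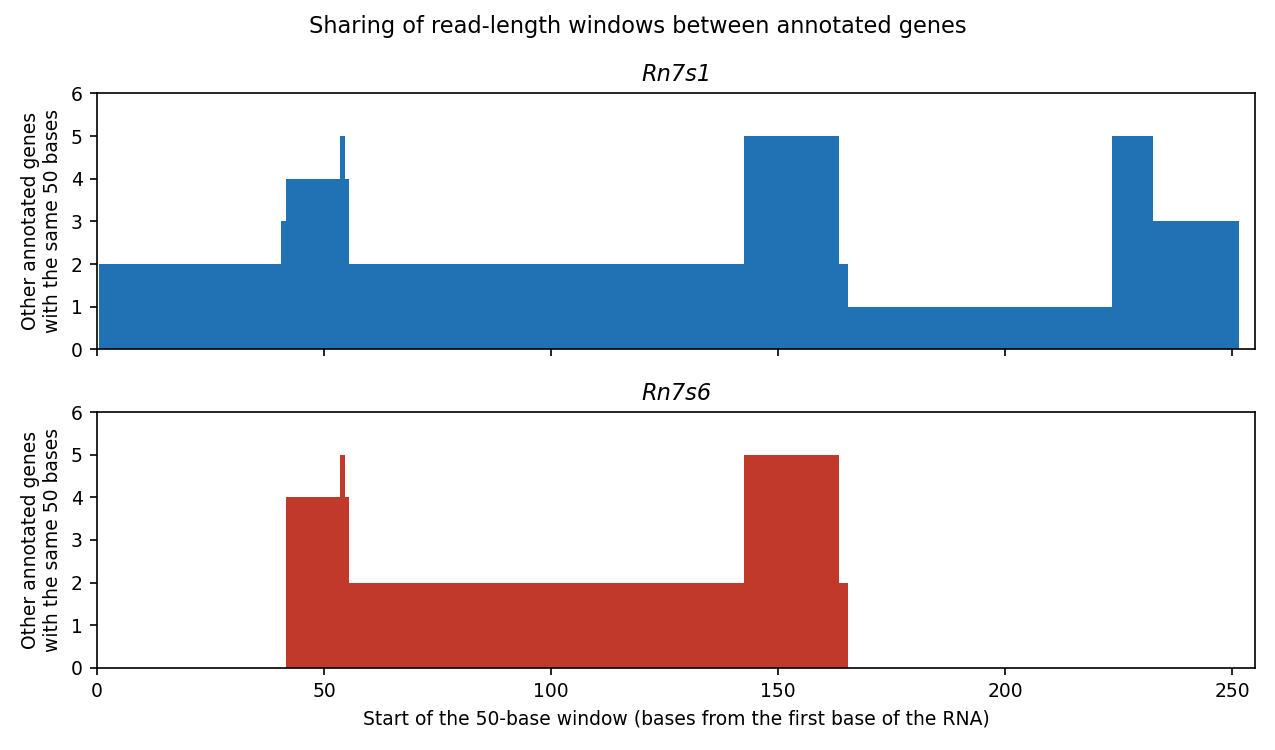
Number of other annotated genes that hold the same 50 bases (vertical axis) for each window of Rn7s1 (upper panel) and Rn7s6 (lower panel), by the window's first base in the RNA. Rn7s1 has at least 1 other gene at each of its 251 windows, and Rn7s6 has others only at the windows that start at bases 42 to 165.

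Shorter genes of the annotation's miRNA class lie on the same strand inside the copies. Bases 143 to 212 of Rn7s1 are annotated as Gm47287, with the counterparts Gm47305 in Rn7s2 and Gm47304 in Rn7s6. The last 77 bases of Rn7s1 are annotated as Gm47295 and those of Rn7s2 as Gm47299, each running a few bases past the copy.

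The protein genes were less shared over the transcript searched, the longest coding one of each gene. Other exonic bases were not searched, and for Srp9 the transcript held 1367 of 5541 exonic bases. None of the windows of Srp14 (0 of 749), Srp68 (0 of 2477) or Srp72 (0 of 3576) occurred in another annotated gene, and Srp19 shared 4 of 827 (0.484%). Srp9 shared 204 of 1318 windows (15.5%) with the pseudogene Gm13736. Srp54a shared 3347 of 4449 (75.2%), nearly all with its paralogs Srp54b and Srp54c, so its own level is uncertain.

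The 7SL copies were high in Brd1+/- vehicle mice and low in every other group. Rn7s1 ranged from 68.1 to 122.1 TPM in the 8 Brd1+/- vehicle libraries, with a median of 89.9. In the 8 WT vehicle libraries it ranged from 1.36 to 5.25 TPM, with a median of 2.96. Every Brd1+/- vehicle library lay above every WT vehicle library, an arrangement that 0.441% of the 24279 genes in that comparison showed. The means of 92.9 ± 20.4 and 2.92 ± 1.2 TPM (SD, n = 8 each) were 31.8-fold apart, a log2 difference of 5.02. Those values belong to the choice of the gene and are a description.

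Neither drug group of Brd1+/- mice came near that level. With IMN, Rn7s1 in Brd1+/- mice ranged from 2.16 to 9.38 TPM with a median of 5.72. With FLX it ranged from 1.29 to 8.29 TPM with a median of 2.83. The Brd1+/- vehicle mean was 15.6-fold the IMN mean of 5.96 ± 2.35 TPM and 28.9-fold the FLX mean of 3.22 ± 2.13 TPM (SD, n = 8 each), log2 differences of -4.02 and -4.96 for drug minus vehicle. In WT mice Rn7s1 ranged from 1.41 to 10.4 TPM (median 5.43) with IMN and from 1.19 to 8.77 TPM (median 3.64) with FLX. The drug by genotype interactions came to -4.68 for IMN and -5.29 for FLX on the log2 scale, again as a description. Both interactions and both drug comparisons in Brd1+/- mice share the Brd1+/- vehicle libraries.

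Rn7s2, identical in sequence, had nearly the same values. Its level was 64.1 to 123.6 TPM in Brd1+/- vehicle mice (median 92.2) and 1.36 to 4.79 TPM in WT vehicle mice (median 2.74). The Brd1+/- means were 93.8 ± 21.6 TPM with vehicle, 6.45 ± 2.99 with IMN and 3.08 ± 2.22 with FLX (SD, n = 8 each). The WT means were 2.70 ± 1.21 TPM with vehicle, 5.00 ± 2.86 with IMN and 4.31 ± 2.94 with FLX. Within a library the levels of Rn7s1 and Rn7s2 differed by a median of 1.78% and by 46.3% at most. Over the 8 libraries of a group their log2 levels had Pearson's r of 0.871 to 0.998, which is no test of shared behaviour, since both levels come from dividing the same reads. The group means of Rn7s1 ran in the order Brd1+/- vehicle, Brd1+/- IMN, WT IMN, WT FLX, Brd1+/- FLX and WT vehicle, and from the second group on each range overlapped the next.

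**Figure D2:**
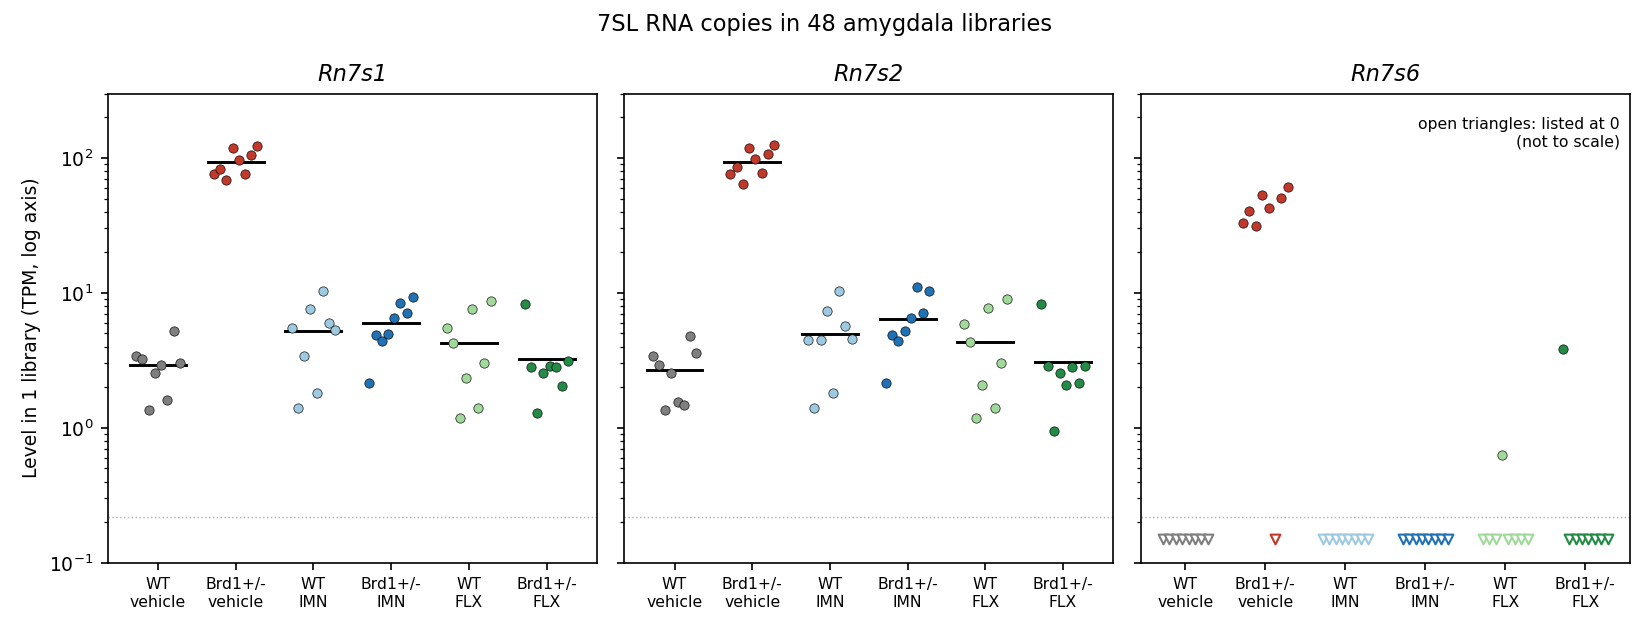
TPM of Rn7s1, Rn7s2 and Rn7s6 in each of the 48 libraries on a log axis, by group of 8. Lines are the means of Rn7s1 and Rn7s2, and open triangles below the dotted line mark libraries listed at 0 for Rn7s6. The Brd1+/- vehicle libraries sit at 64.1 TPM or more for Rn7s1 and Rn7s2, and the libraries of the other groups at 11.1 TPM or less.

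Rn7s6 as an annotated gene had values above 0 almost only in Brd1+/- vehicle mice. It was listed at 0 in all 8 libraries of the WT vehicle, WT IMN and Brd1+/- IMN groups, and in 7 of 8 of each FLX group. The exceptions were 0.628 TPM in WT FLX replicate 4 and 3.85 TPM in Brd1+/- FLX replicate 1. In Brd1+/- vehicle mice 7 libraries held 31.5 to 60.8 TPM, or 43.4 to 49.8% of their Rn7s1 level. The eighth, replicate 6, was listed at 0 for Rn7s6, and the nested gene Gm47304 stood there at 76.1 TPM, against 1.88 to 2.62 TPM in the other 7. Gm47304, which shares its bases with Rn7s1 and Rn7s2 as well, was above 0 in all 48 libraries, those listed at 0 for Rn7s6 included, with means of 6.92 TPM in WT IMN and 6.44 TPM in Brd1+/- IMN mice. A 0 in a table without counts can be a failed estimate, so no fold is given for Rn7s6.

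In the 6 comparisons not used to choose them, the RNA copies showed no called difference. Those comparisons still reuse libraries of the choice, since both interactions hold WT vehicle and drug groups. They are therefore not independent of it. Rn7s1 and Rn7s2 were tested with limma in these 6 comparisons, on log2(TPM + 0.1). Of the 12 fits 0 had an adjusted p under 0.05, while 2 had an unadjusted p under 0.05. Rn7s1 and Rn7s2 divide the same reads, so their fits are not separate results and neither are the 2 low p-values. Both low p-values were for FLX against IMN in Brd1+/- mice. In that comparison 0% of 23724 genes were called and 2.99% had an unadjusted p under 0.05. There Rn7s1 differed by -0.94 (95% interval -1.64 to -0.24) and Rn7s2 by -1.12 (-1.91 to -0.34) on the log2 scale, with limma adjusted p of 1.00 for each. Brd1+/- and WT mice differed by 0.34 for Rn7s1 and 0.45 for Rn7s2 under IMN, and by -0.28 and -0.38 under FLX. In WT mice IMN minus vehicle was 0.66 and 0.75, FLX minus vehicle 0.33 and 0.45, and FLX minus IMN -0.33 and -0.30. The lowest limma adjusted p of the 12 was 0.63.

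The mRNAs of the protein subunits showed no such separation of groups. No subunit was called in any of 11 comparisons, 0 of 66 limma fits, and 2 of 66 had an unadjusted p under 0.05. The log2 differences ran from -0.37 to 0.25, and all the 95% intervals lay between -0.73 and 0.65. Between Brd1+/- and WT vehicle mice the 6 subunits differed by -0.10 to 0.01, with a median of -0.06 beside 0.03 over all genes tested. The intervals of these 6 differences lay between -0.36 and 0.22, whereas the RNA copies were apart by 5.02 and 5.16. In that comparison 0 of 6 subunits were called, against 0.708% of all genes, and none had an unadjusted p under 0.05, against 8.52%.

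**Figure D3:**
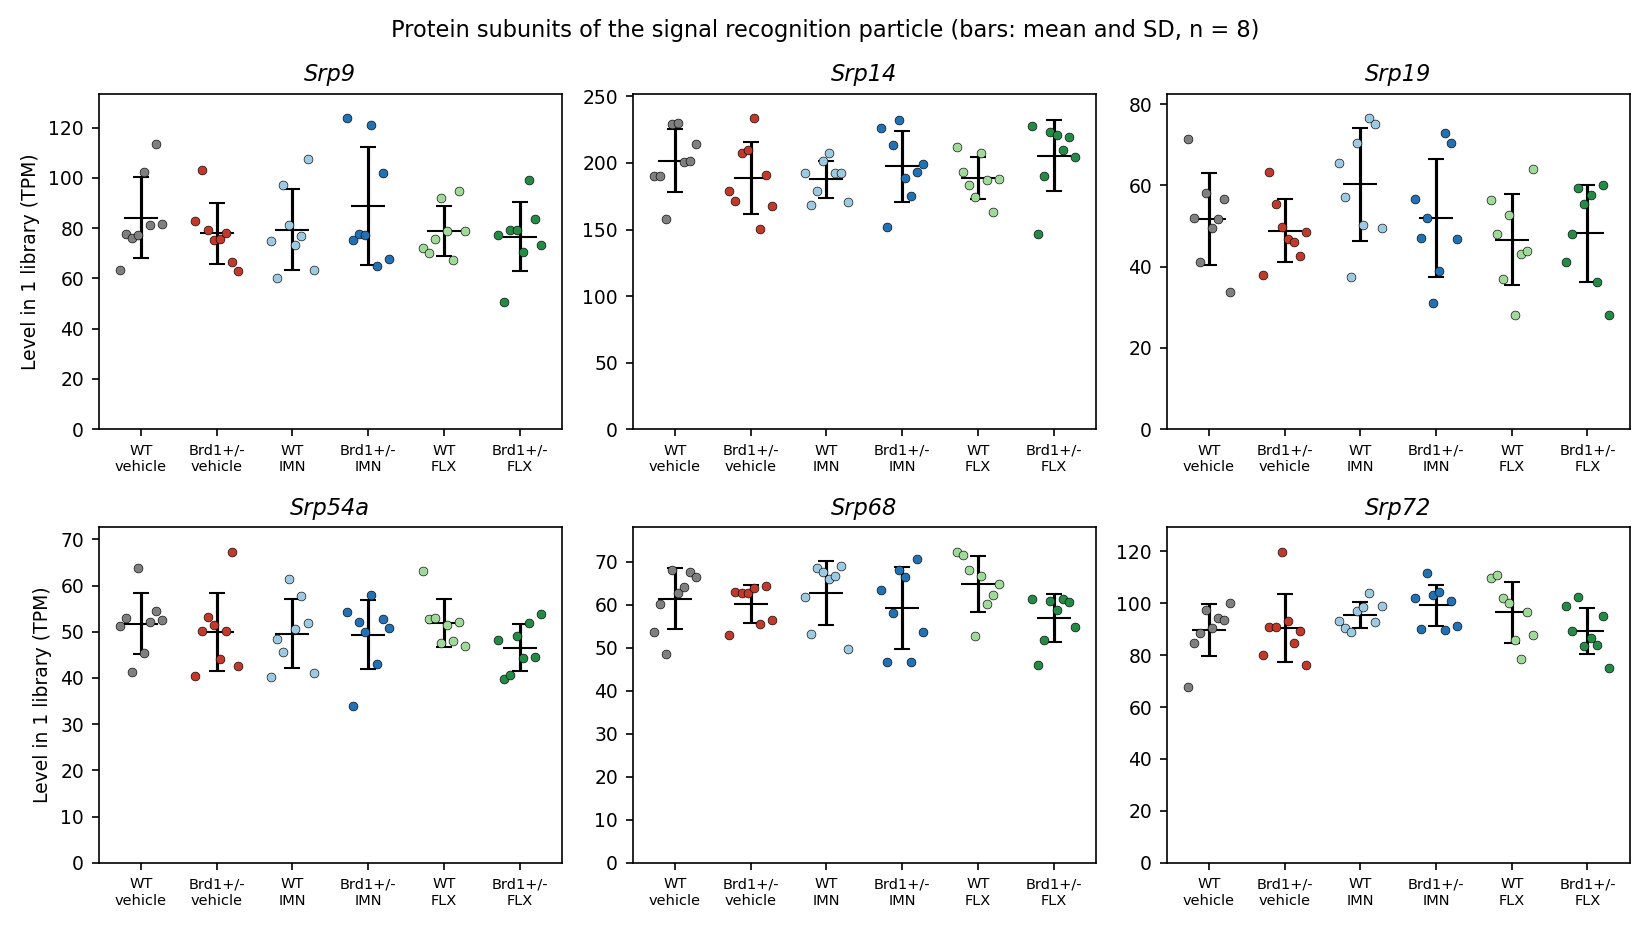
TPM of the 6 protein subunits in each of the 48 libraries, by group of 8, with bars for the mean and SD. The ranges of the 6 groups overlap for every subunit. The highest of the 48 libraries is a Brd1+/- vehicle library for Srp14 (233 TPM), Srp54a (67.3 TPM) and Srp72 (119.8 TPM), and a library of another group for Srp9, Srp19 and Srp68.

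By role, the pair on the Alu domain was the most abundant together. Srp14 (ENSMUSG00000009549, chr2:118475850-118479711, minus strand) was 158 to 230 TPM (median 201) in WT vehicle and 151 to 233 TPM (median 185) in Brd1+/- vehicle mice. Its group means ran from 188 TPM in WT IMN to 205 TPM in Brd1+/- FLX mice, a 1.09-fold range. Srp9 (ENSMUSG00000026511, chr1:182124737-182132407, plus strand) was 63.5 to 114 TPM (median 79.4) in WT vehicle and 62.9 to 103 TPM (median 77.0) in Brd1+/- vehicle mice. The group means of Srp9 lay between 76.6 and 88.7 TPM, 1.16-fold apart. Groups overlapped for both genes.

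Srp54a and Srp19 act together on the signal peptide side of the particle. Srp54a (ENSMUSG00000073079, chr12:55080262-55115367, plus strand) was 41.3 to 63.9 TPM (median 52.3) in WT vehicle and 40.5 to 67.3 TPM (median 50.2) in Brd1+/- vehicle mice. The sum of Srp54a, Srp54b and Srp54c, which avoids the division of shared reads, had group means of 146 to 158 TPM. Srp19 (ENSMUSG00000014504, chr18:34330847-34336599, plus strand) had the widest range of group means of the 6 subunits, 1.29-fold. It ran from 28.2 to 63.9 TPM (median 45.9) in WT FLX mice and from 37.5 to 76.5 TPM (median 61.3) in WT IMN mice, with means of 46.6 and 60.3 TPM. FLX minus IMN was -0.37 on the log2 scale (SE 0.17, limma unadjusted p = 0.045 and adjusted p = 0.858). It is 1 of the 2 fits with an unadjusted p under 0.05, which 4.78% of genes had in that comparison.

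Srp68 and Srp72, the heterodimer, were at 57.0 to 64.9 and 89.4 to 99.2 TPM by group mean. Srp68 (ENSMUSG00000020780, chr11:116245166-116274217, minus strand) gave the other of the 2 fits. Under FLX it was 46.0 to 61.4 TPM (median 59.8) in Brd1+/- and 52.8 to 72.3 TPM (median 65.8) in WT mice, with overlapping groups. The log2 difference was -0.19 (95% interval -0.36 to -0.02, limma unadjusted p = 0.0336 and adjusted p = 0.25), in a comparison where 16.6% of genes had an unadjusted p under 0.05. Srp72 (ENSMUSG00000036323, chr5:76974683-76999937, plus strand) ranged from 67.8 to 100.3 TPM in WT vehicle and from 76.2 to 119.8 TPM in Brd1+/- vehicle mice. Its group means were 1.11-fold apart.

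**Figure D4:**
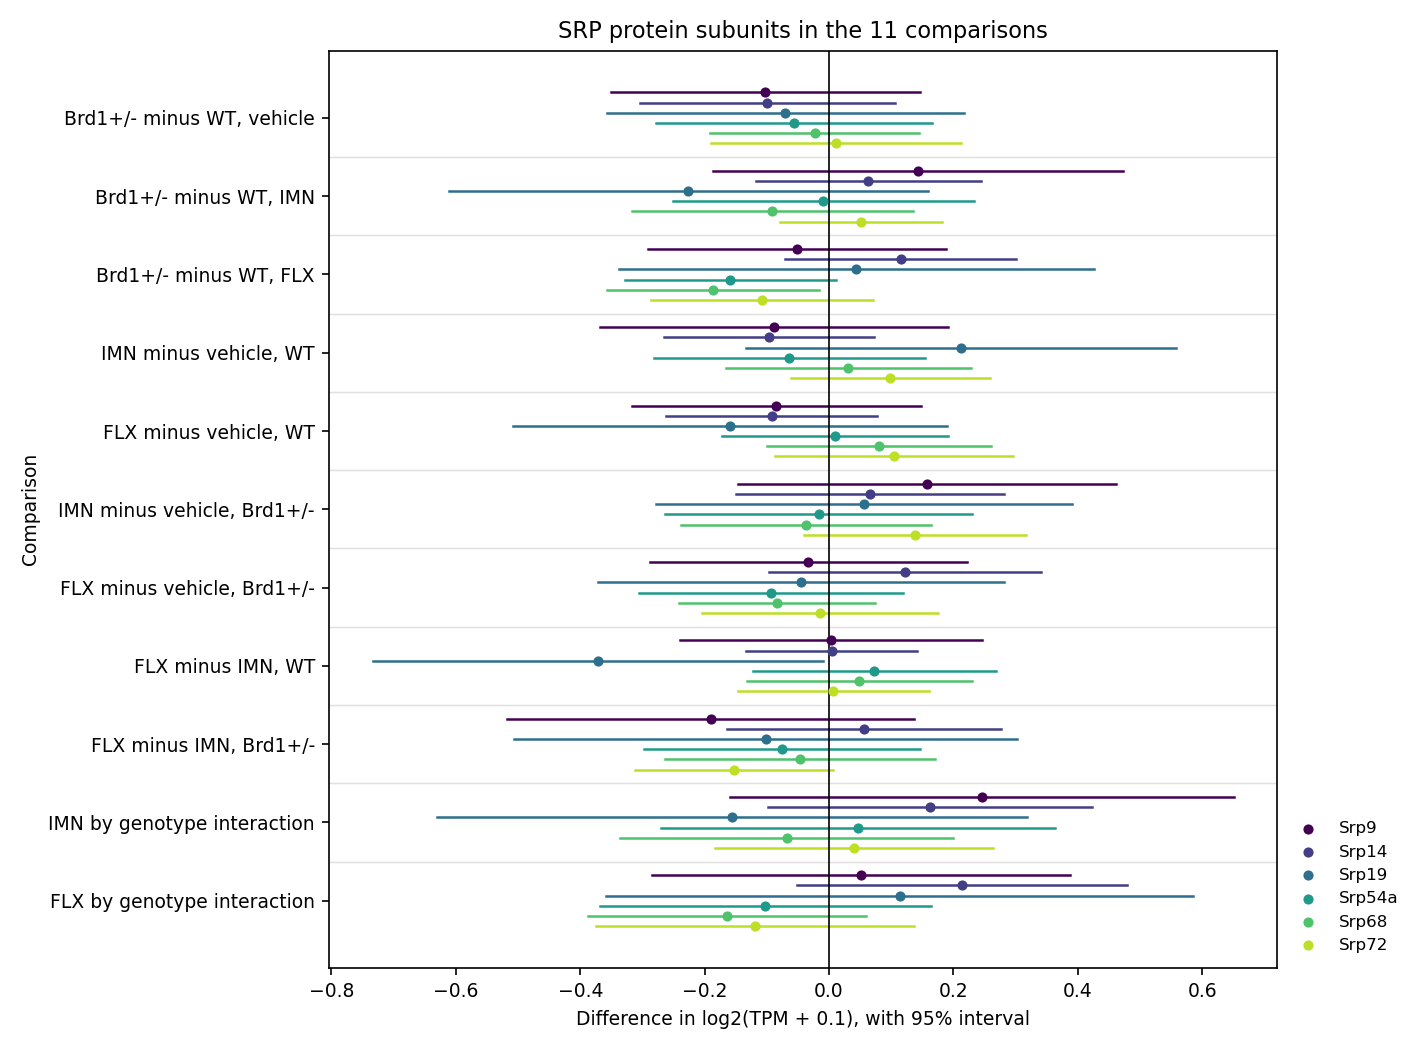
Log2 difference with its 95% interval for each protein subunit in each of the 11 comparisons, from limma on log2(TPM + 0.1), in the colour of its subunit. The differences run from -0.37 to 0.25, and 2 of the 66 intervals leave out 0.

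The other comparisons can be read against their own background. Genotype under IMN had 0 of 6 subunits called (0.017% of all genes) and genotype under FLX 0 of 6 (1.54%). For IMN against vehicle the counts were 0 of 6 in WT mice (0%) and 0 of 6 in Brd1+/- mice (0.776%). For FLX against vehicle they were 0 of 6 in WT mice (0.335%) and 0 of 6 in Brd1+/- mice (0.731%), and for FLX against IMN in WT mice 0 of 6 (0%). The IMN by genotype interaction called 0 of 6 (0.536%) and the FLX interaction 0 of 6 (1.71%). With so few members, a share of 0 is not apart from backgrounds of this size. The median subunit differed by -0.03 in the FLX interaction, where the median over all genes was -0.10.

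The ratio of the RNA copies to the protein mRNAs within a library does not depend on what the total is scaled to. Its absolute size also depends on the unknown RNA selection, so it is read between groups and not as a ratio of molecules. The log2 of the summed Rn7s1 and Rn7s2 level minus the mean log2 level of the 6 subunits was 1.27 ± 0.35 in Brd1+/- vehicle mice, from 0.71 to 1.87. It was -3.92 ± 0.57 in WT vehicle, -3.22 ± 0.90 in WT IMN, -2.80 ± 0.79 in Brd1+/- IMN, -3.50 ± 1.06 in WT FLX and -3.77 ± 0.82 in Brd1+/- FLX mice (SD, n = 8 each). The Brd1+/- vehicle group was thus 4.08 to 5.19 above the others on the log2 scale. For 100 TPM of summed protein mRNA there were 36.4 ± 9.0 TPM of the RNA copies in Brd1+/- vehicle mice and 1.03 TPM in WT vehicle mice. The summed protein level was 516 TPM and 540 TPM in those groups.

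**Figure D5:**
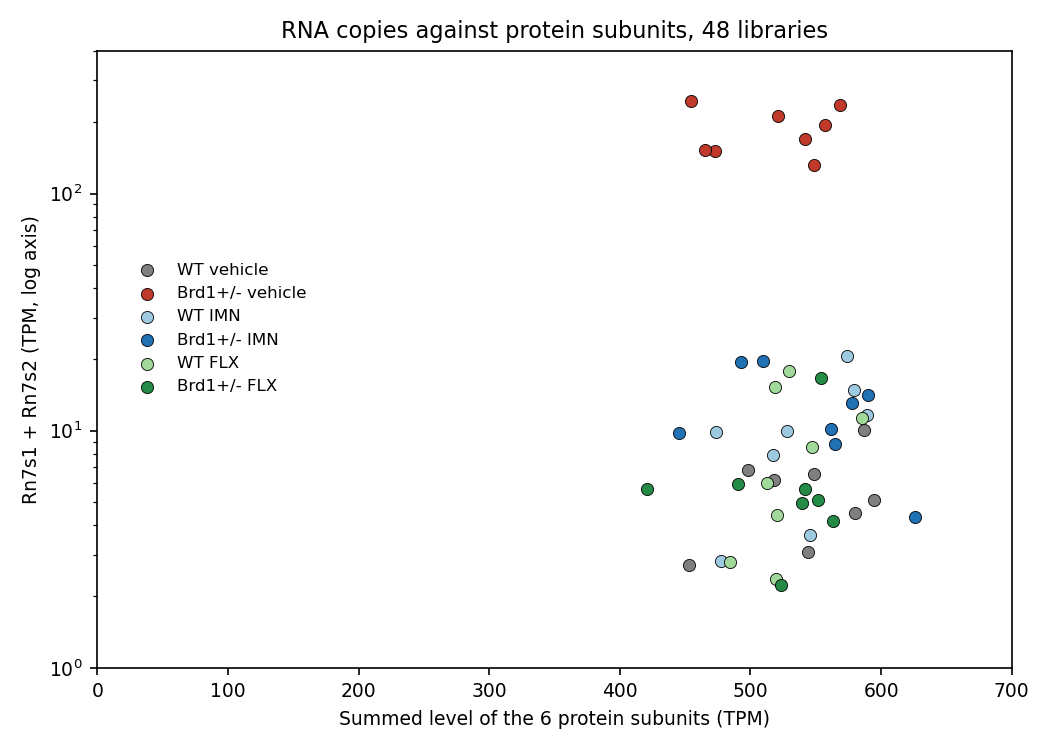
Summed TPM of Rn7s1 and Rn7s2 against summed TPM of the 6 protein subunits, 1 point a library, log axis for the RNA, coloured by group. The Brd1+/- vehicle libraries lie at 132.2 to 245.7 TPM of RNA with protein sums like those of the other groups.

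Several genes that share sequence with the copies were also at their highest in Brd1+/- vehicle mice. In all, 10 other genes of the table held at least 1 window of 50 bases in common with a 7SL copy. They were not filtered on level, whereas the background of 27944 genes had TPM of at least 0.1 in at least 8 libraries. The miRNA-class entry of Gm24105 (ENSMUSG00000105790) was listed at 0 in every library. Of these 10, 7 had their highest group mean in Brd1+/- vehicle mice (20.4% of 27944 genes did). Of the 7, Gm47304 had it through replicate 6 alone, at 76.1 TPM beside 1.88 to 2.62 TPM in the other libraries. By the stricter measure, 4 of the 10 had every Brd1+/- vehicle library above all 40 others (0.154% of the 27944 genes did). These 4 were Gm26461 (mean 21.8 TPM, other libraries at most 3.94), Gm24105 (5.35 TPM, at most 1.12), Gm24514 (1.89 TPM, at most 0.394) and Gm47295 (28.1 TPM, at most 7.86). In a search of short annotated transcripts, 1 gene besides Rn7s2 aligned with Rn7s1 over at least 80% of its length at 90% identity or more. It was Gm24105 (ENSMUSG00000092674), with 91.7%. This list was drawn up after the values of the copies were known, and shared reads make its members no separate evidence.

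The nested genes had higher means in Brd1+/- vehicle than in WT vehicle mice, and the end genes more so. The end genes Gm47295 and Gm47299 averaged 28.1 and 25.6 TPM in Brd1+/- vehicle mice against 0.908 and 2.35 TPM in WT vehicle mice. The middle genes Gm47287 and Gm47305 averaged 3.15 and 3.09 TPM against 1.32 and 0.983 TPM. Single libraries of other groups were above every Brd1+/- vehicle library for the middle genes, with up to 14.2 TPM for Gm47287 and 14.1 TPM for Gm47305. The third middle gene, Gm47304, had a median of 2.45 TPM in Brd1+/- vehicle and 2.22 TPM in WT vehicle mice, against 6.61 TPM in WT IMN and 5.07 TPM in Brd1+/- IMN mice. How reads were divided between a copy and the genes inside it was not tested.

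By likeness of log2 level over the 48 libraries, Rn7s2 came first of 20428 genes (Pearson's r = 0.995 with Rn7s1), followed by Gm26461 (0.913), Gm37899 (0.882), Gm24514 (0.866), Gm47295 (0.863), Gm10277 (0.831), Rn7s6 (0.831), Gm24105 (0.823), 5330406M23Rik (0.802) and Gm47299 (0.792). Of these 10 genes, 7 share 50-base windows with 7SL RNA. The ranking covered genes with TPM of at least 0.1 in at least 8 libraries and a mean of at least 1 TPM in 1 group. Gm37899, Gm24514, Gm10277, Rn7s6, Gm24105 and 5330406M23Rik had such a mean only in Brd1+/- vehicle mice. The 48 libraries and the filter both include the group that sets the order, so this is a description and no evidence on the copies.

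The rest of the targeting pathway showed no called gene. Its lists hold the receptor, the Srp54 paralogs, the Sec61 translocon, the TRAP complex, signal peptidase, oligosaccharyltransferase, tail-anchored protein insertion, RNA polymerase III with 7SL maturation factors, and other RNAs made by that polymerase. In each of the 11 comparisons 64 to 66 of their genes were tested with limma and 0 were called in either direction. Between Brd1+/- and WT vehicle mice, where 0.708% of all genes were called, 4 of 64 had an unadjusted p under 0.05, all higher in Brd1+/- mice. Over all genes 8.52% had one, so this count is no larger than the background. The receptor subunits differed there by 0.02 for Srpr and 0.19 for Srprb, which anchors Srpr in the membrane. In WT mice FLX minus vehicle was 0.36 for Srprb (SE 0.11, limma adjusted p = 0.118) and 0.24 for Srpr (SE 0.10, limma adjusted p = 0.251).

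Among the other RNA polymerase III transcripts listed, Rn7sk, the RNA that holds the elongation factor P-TEFb inactive, had the highest mean level. Its own level is uncertain too, since 192 of its 282 windows (68.1%) occurred in another annotated gene. It averaged 3.77 TPM in WT vehicle, 5.00 in WT IMN and 5.49 in WT FLX mice. In Brd1+/- mice it averaged 7.60 TPM with vehicle, 8.95 with IMN and 5.97 with FLX. The vehicle difference was 1.18 on the log2 scale (SE 0.29, limma unadjusted p = 0.00079 and adjusted p = 0.0837), which did not pass. Brd1+/- minus WT was 0.88 under IMN (SE 0.27, limma unadjusted p = 0.00486 and adjusted p = 0.9996) and 0.18 under FLX (SE 0.29, limma adjusted p = 0.803), and neither passed. Over the libraries of a group Rn7sk was not shown to vary with Rn7s1 (r of 0.177 to 0.479, lowest adjusted exact permutation p = 0.516) or Rn7s2 (r of -0.268 to 0.488, lowest adjusted exact permutation p = 0.516, adjusted over 18 relations). Spearman's rho lay between -0.31 and 0.595 (lowest adjusted exact permutation p = 0.298). Without the 2 libraries farthest from the median r ran from -0.191 to 0.840 for Rn7s1 and from -0.689 to 0.830 for Rn7s2, the highest of both in Brd1+/- vehicle mice. Rmrp, Rny1, Rny3 and Vaultrc5 were listed at 0 in 32 to 42 of the 48 libraries.

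Other measures also differed between Brd1+/- and WT vehicle mice, and not all of them set that Brd1+/- group apart from the drug groups. Malat1, a nuclear-retained noncoding RNA, was 637 to 1031 TPM in Brd1+/- vehicle and 190 to 372 TPM in WT vehicle mice, a log2 difference of 1.59 (limma adjusted p = 1.15e-05), and none of the other 8 RNAs on its list was called. In Brd1+/- mice Malat1 was also called lower with IMN (-1.66, limma adjusted p = 1.71e-05) and with FLX (-1.51, limma adjusted p = 3.70e-05). Both drug by genotype interactions were called for it too, at -2.26 and -1.26. Summed oligodendrocyte markers ran from 2098 to 15217 TPM in Brd1+/- vehicle and from 575 to 10158 TPM in WT vehicle mice, with means of 6797 and 2893 TPM. Their mean sums were 5706 TPM in Brd1+/- FLX, 5096 in WT FLX, 4873 in WT IMN and 3283 in Brd1+/- IMN mice. Between the 2 vehicle groups all 6 of these markers had an unadjusted p under 0.05 (8.52% of all genes did), none was called by limma (0.708% were), and their median log2 difference was 1.51. Of the microglia and of the astrocyte markers 3 of 6 had an unadjusted p under 0.05, all higher, with medians of 0.28 and 0.34. Red blood cell markers had 1 of 5, a median of 0.64, and mean sums of 520 TPM against 328 TPM in WT vehicle mice. Summed neuron markers averaged lower, at 2888 TPM in Brd1+/- vehicle against 3412 TPM in WT vehicle mice. In bulk tissue, more cells of a type and more RNA per cell cannot be told apart. Of the 40 libraries in the other groups, 24 had an oligodendrocyte sum of at least 2098 TPM, and Rn7s1 was 1.19 to 10.4 TPM in them. That cut is the lowest sum of a Brd1+/- vehicle library, and the part of these measures in the 7SL values was not tested. The sample codes of vehicle and drug mice fell in separate ranges, so code range and treatment cannot be told apart. WT and Brd1+/- vehicle codes were interleaved, and Rn7s1 averaged 101 and 88.2 TPM in the lower and upper code range of Brd1+/- vehicle mice, against 3.21 and 2.75 TPM in WT vehicle mice.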

How the data were processed

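RNA of 48 right amygdala samples was made into TruSeq libraries and sequenced as single reads of 50 bases. Per the labels and the submitters' processing notes, reads were checked with FastQC, trimmed with Trimmomatic, aligned to GRCm38 with HISAT2 2.1.0 and quantified with StringTie 1.3.4 on Ensembl annotation. The authors deposited TPM, with column sums of 999524 to 999772, without counts. The depth of each library is therefore unknown, although the study states a minimum number of clean reads for every sample. RNA selection, strand and the treatment of reads with several matches are not given in the sources used here.

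Groups came from the labels, and the text on the series' design, which names other tissue, was not followed. Genes with TPM of at least 0.1 in at least 8 libraries of a fit were tested on log2(TPM + 0.1), a scale that understates the change of low genes. The test was limma 3.58.1 (R 4.3.3, trended prior, two-sided, Benjamini-Hochberg over all genes tested, threshold 0.05), fitted on the groups compared and no others, and it was tested on simulated data. The interactions used the 4 groups of 1 drug and vehicle. The study itself used edgeR on counts, which TPM does not allow. That separate animals underlie the libraries is taken from the study's methods. Correlations within a group of 8 had exact permutation p-values (SciPy 1.17.1).

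Gene positions and transcripts were read from GENCODE M21 (GRCm38), which held 52489 of the 52636 identifiers. Windows of 50 bases were searched in annotated transcripts in place of the genome, which was not used here, so matches outside annotated transcripts were not counted. The search for genes aligning with Rn7s1 used BLAST 2.17.0 on short annotated transcripts, so longer transcripts were not searched in that step. Rn7s6 was compared with Rn7s1 position by position without gaps, up to the first stretch where most bases differed. The sequences themselves are not reported here. The members and lists were chosen with earlier results of these data known. Named genes were the 9 members, called members of fixed lists, genes aligning with Rn7s1, and the 10 genes most like it. Genes sharing windows, and Rn7sk, Srpr, Srprb and Gm47304, were named after their values were seen. Alternatives were 2 other pseudocounts, 2 other filters, other scalings, a code range term, a replicate block and leaving out libraries.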

Additional observations from a re-analysis of the deposited data

Results flagged for a closer look

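The screen covered 51 sets, each 1 gene in 1 group of 8 libraries. The libraries named here stood apart from the other 7 of their group by Dixon's criterion (gap to the nearest library over the range). Chance alone meets it in about 5 of 100 sets, so a few of the 51 would meet it by chance. That rate does not hold for Rn7s6 with 7 of 8 libraries at 0, where the criterion is met by construction, and Rn7s1 and Rn7s2 divide the same reads, so they count as 1. Brd1+/- FLX replicate 1 had the highest Rn7s1 of its group at 8.29 TPM (next 3.11), the highest Rn7s2 at 8.33 TPM (next 2.87), and Rn7s6 at 3.85 TPM where the other 7 were listed at 0. Rn7s6 was 46.4% of Rn7s1 in that library, within the 43.4 to 49.8% of the Brd1+/- vehicle libraries. WT FLX replicate 4 had Rn7s6 at 0.628 TPM with the other 7 listed at 0.

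Among the proteins, Srp14 was lowest in Brd1+/- FLX replicate 2 at 147 TPM (next 190.2). Srp54a was highest at 67.3 TPM (next 53.2) in Brd1+/- vehicle replicate 7 and at 63.1 TPM (next 53.0) in WT FLX replicate 1. Srp72 was highest in Brd1+/- vehicle replicate 4 at 119.8 TPM (next 93.2).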

How the results depend on the processing

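No protein subunit was called under any alternative run, in 329 counts over comparisons and settings, and the lowest limma adjusted p among them was 0.0995 (Srp14 in the FLX interaction under median-ratio scaling, difference 0.31). With the replicate number as a block 0 subunits were called, and the numbers did not pair the samples (median correlation of same-numbered libraries -0.06 to 0.10). Of 1908 protein differences 77 took the other sign, none of them called. With the summed protein level in place of the mean log2 level, a larger denominator by construction, the RNA against protein value was -1.49 in Brd1+/- vehicle, -6.70 in WT vehicle, -5.97 in WT IMN, -5.59 in Brd1+/- IMN, -6.27 in WT FLX and -6.59 in Brd1+/- FLX mice. Chosen after seeing the data, the mean of Rn7s1 in the upper code range of Brd1+/- IMN mice, 2 libraries, was 3.50 TPM; the cause was not tested. Leaving out 1 library kept Rn7s1 in Brd1+/- vehicle mice at 88.8 to 96.5 TPM, and took Rn7s6 to 0 in WT FLX without replicate 4 and in Brd1+/- FLX without replicate 1. Leaving out 9 libraries with high choroid plexus markers, also chosen after seeing the data, gave 0 calls. Without counts, the precision of low levels such as those of Rn7s6 is unknown.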

Other observations

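After subtraction of group means, which leaves the variation among libraries of a group, the 10 genes most like Rn7s1 over the 48 libraries were Rn7s2 (Pearson's r = 0.972), 4732440D04Rik (0.592), Trim15 (0.587), Gm47295 (0.561), Tma7-ps (0.545), Bloc1s2-ps (0.535), Gm49326 (0.532), Lsm7 (0.519), Wdr41 (0.517) and 0610009E02Rik (0.510). Of these, 2 share 50-base windows with 7SL RNA, against 7 of the 10 named over the pooled libraries, and 3 are protein-coding. No subunit of the particle was among them, and the filter on level was that of the pooled ranking.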
